A study of Populus tremula x Populus alba with 72 samples.

Results

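Expanded poplar leaves that had spent 13 days in air with 100 ppb ozone in the daytime were compared with expanded leaves of the same day at 80 ppb. The comparison takes the 8 of 72 libraries that carry the labels expanded leaf (leaf position F3) and day 13 together with an ozone treatment, 4 at 100 ppb and 4 at 80 ppb. Neither group compared holds a library from filtered air, but those libraries enter the spread per gene behind the tests. The trees were hybrid poplars (Populus tremula x Populus alba) of a single micropropagated clone, INRAE 717-1B4, aged 2.5 months at exposure, so the values describe 1 genotype. Both groups breathed charcoal-filtered air to which ozone was added for 13 h of the day, and they differed, as far as the labels go, in the ozone concentration alone. The full experiment crossed 2 leaf positions (expanded and growing), 3 kinds of air (filtered, 80 ppb and 100 ppb) and 3 sampling days (2, 8 and 13), with 4 libraries in each of 18 groups. What a replicate number stands for (a tree, a chamber or a harvest) is not given in the labels. The p-values therefore reflect the spread among libraries, which may be technical, and a chamber effect and an ozone effect cannot be told apart.

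Ozone enters a leaf through the stomata and breaks down in the cell wall space into reactive oxygen species. Plants are known to answer with antioxidant and defence transcripts, and with longer exposure with a decline of photosynthetic transcripts and earlier leaf senescence. Older, fully expanded leaves of poplar are usually injured before younger ones. A contrast of 2 ozone concentrations asks what the higher one adds when both leaves are already exposed.

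Gene reads numbered 23.2 M to 45.6 M in the 4 libraries at 80 ppb and, in those at 100 ppb, 36.4 M to 53.2 M (M stands for mega-reads). After the authors' normalization the totals were 31.2 M to 32.8 M at 80 ppb and 34.2 M to 37.2 M at 100 ppb, and the groups did not overlap (means 32.1 ± 0.711 M against 35.5 ± 1.41 M, SD, n = 4, two-sided exact permutation p = 0.0286, the smallest that 4 against 4 libraries allow). A normalised read count is a read count divided by 1 factor per library. Of 34699 genes listed, 27780 passed the filter on low values (at least 10 in at least 4 of the 72 libraries) and were tested. The table gives gene identifiers without names, descriptions or sequences, so the genes appear by identifier alone. For the same reason the leaf label could not be set against marker genes, and near-identical gene copies that share reads could not be assessed. In whole leaves, fewer cells of a type and less RNA per cell cannot be told apart.

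At 100 ppb 8117 genes differed from 80 ppb, 29.2% of those tested (limma on all 72 libraries, Benjamini-Hochberg adjusted p under 0.05). Of these 4696 genes were higher at 100 ppb (16.9% of those tested) and 3421 were lower (12.3%). Differences of at least 2-fold were reached by 1659 higher (5.97%) and 1420 lower genes (5.11%), those of at least 4-fold by 556 (2%) and 312 (1.12%), and those of at least 8-fold by 99 (0.356%) and 54 (0.194%). The median size of a called difference was 0.77 on the log2 scale. In 4004 genes all 4 libraries at 100 ppb lay above all 4 at 80 ppb (14.4% of those tested), and in 2939 genes they all lay below (10.6%). Both conditions, the test and no overlap, were met by 3206 higher (11.5%) and 2264 lower genes (8.15%). The majority of higher genes depends on the scaling. With library totals made equal, the median difference of all tested genes moved from 0.02 to −0.12 on the log2 scale, 7729 genes were called, and 30.6% of them rather than 57.9% were higher.

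**Figure D1:**
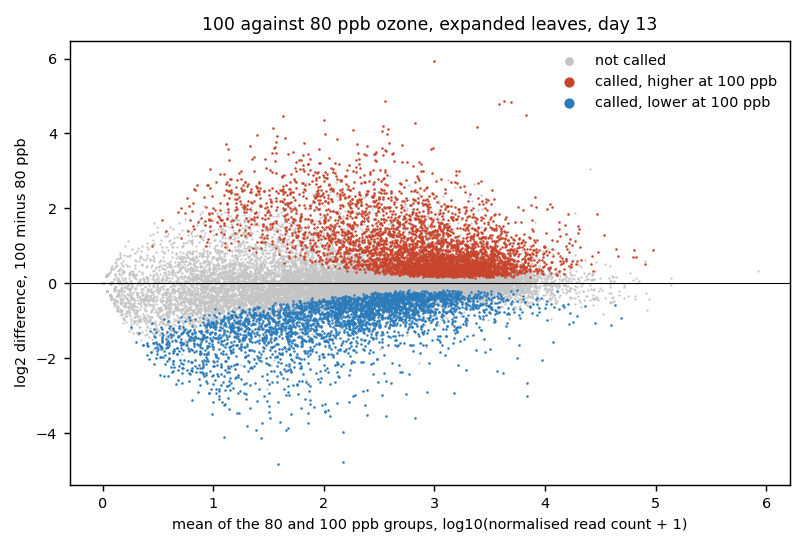
Each point is a tested gene, plotted by its log2 difference between 100 and 80 ppb (vertical axis) against log10 of its mean normalised read count plus 1 in the 8 libraries (horizontal axis). Red points are the 4696 genes called higher at 100 ppb and blue points the 3421 called lower; the largest differences sit among genes of low and middle abundance.

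Among genes with a mean of at least 100 normalised reads in the higher group and no overlap between the groups, the largest rise was that of Potri.002G025350. It had 59.3, 20.6, 13.9 and 9.36 normalised reads in replicates 1 to 4 at 80 ppb, and 340.0, 751, 3011 and 3666 at 100 ppb. Every library at 100 ppb lay far above every library at 80 ppb, and the 2 highest were replicates 3 and 4. The log2 difference was 5.94 ± 0.81 (standard error, limma adjusted p = 1.44e-07), which is 61.2-fold. The gene next in size, Potri.002G025425, carries a nearby identifier and had 40.8, 25.3, 8.37 and 10.1 normalised reads at 80 ppb and 291, 228, 892 and 1374 at 100 ppb. Its groups also stayed apart, with replicates 3 and 4 again on top at 100 ppb. Its log2 difference was 4.87 ± 0.64 (limma adjusted p = 6.72e-08).

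The 2 largest falls by the same rule went nearly to 0 in some libraries. Potri.001G176000 had 257, 51.4, 230.2 and 578 normalised reads at 80 ppb against 23.1, 33.7, 2.82 and 0 at 100 ppb. Replicate 2 at 80 ppb was the lowest of its group and still above all of the 100 ppb libraries. The log2 difference was −4.78 ± 0.71 (limma adjusted p = 9.29e-07). Potri.015G010500 went from 129, 194, 398 and 340.0 to 45.6, 69.0, 3.76 and 2.63, so that replicates 3 and 4 at 100 ppb were lowest. Its log2 difference was −3.97 ± 0.55 (limma adjusted p = 2.3e-07).

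In the 2 most abundant called genes of each direction the differences were under 2-fold. Potri.006G141700 had 53840, 74820, 77680 and 54430 normalised reads at 80 ppb and 126200, 76450, 122800 and 164000 at 100 ppb. Replicate 2 at 100 ppb fell within the range of the 80 ppb group, and the other 3 lay above it. The log2 difference was 0.88 ± 0.19 (limma adjusted p = 0.000331). Potri.014G024100 rose from 64030 ± 9303 to 94390 ± 25706 (SD, n = 4), with replicate 2 at 100 ppb again inside the 80 ppb range (log2 difference 0.53 ± 0.18, limma adjusted p = 0.0206). Potri.011G025200 had 52420, 70150, 71030 and 59170 at 80 ppb and 34040, 42480, 28800 and 28090 at 100 ppb, with no overlap (−0.93 ± 0.32, limma adjusted p = 0.0239). Potri.010G150700 had 50949 ± 8033 at 80 ppb and 34605 ± 8572 at 100 ppb with overlapping groups (−0.58 ± 0.22, limma adjusted p = 0.0428). These 4 calls are less firm than those above. In a model of the 8 libraries by themselves the adjusted p was 0.0966 for Potri.006G141700, 0.234 for Potri.014G024100 and 0.117 for Potri.010G150700. Without replicate 4 at 100 ppb it was 0.147 for Potri.014G024100, 0.0734 for Potri.011G025200 and 0.188 for Potri.010G150700. Calls were also lost without other single libraries: for Potri.014G024100 without replicates 1 and 4 at 80 ppb or replicate 3 at 100 ppb, for Potri.011G025200 without replicates 2 and 3 at 80 ppb or replicate 3 at 100 ppb, and for Potri.010G150700 without replicates 1, 3 and 4 at 80 ppb or 1 and 3 at 100 ppb (adjusted p from 0.0505 to 0.115). Equal totals gave 0.0631 for Potri.014G024100.

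**Figure D2:**
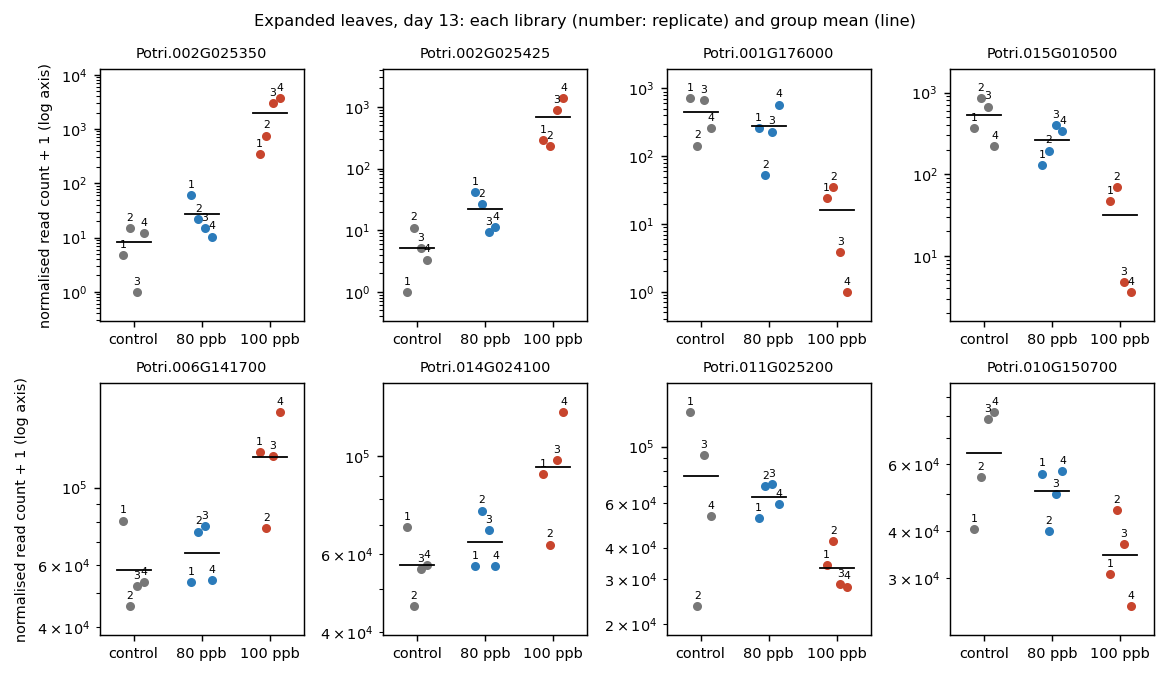
Normalised read counts plus 1 (log axis) of 8 genes in each expanded leaf library of day 13, with the replicate number above each point and the arithmetic group mean as a line. Filtered-air controls are shown for orientation only; the upper 4 genes separate 100 from 80 ppb completely, and in the lower row replicate 2 at 100 ppb reaches the 80 ppb range of Potri.006G141700, Potri.014G024100 and Potri.010G150700.

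The share of called genes varied with abundance. Of 7137 genes with a mean under 100 normalised reads over all libraries, 12.8% were higher and 10.1% lower at 100 ppb. Of 12432 genes between 100 and 1000 the shares were 17.7% and 15.5%, and of 7785 genes between 1000 and 10000 they were 19.8% and 9.39%. The 426 genes above 10000 had 37 called in each direction (8.69%). Differences of at least 2-fold fell from 11.6% higher and 7.68% lower in the first class to 1.17% and 3.76% in the last. Together the genes called higher took 24.5% to 29.2% of the reads of a library at 100 ppb and 16.6% to 21.2% at 80 ppb. The genes called lower took 3.54% to 4.83% and 7.09% to 8.05%. These shares describe genes that the same contrast chose.

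No gene was present at one concentration and absent at the other by the rule used. A gene with no read in all 4 libraries of one group and a mean of at least 10 in the other was found 0 times at 80 ppb and 0 times at 100 ppb.

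Within each group the libraries differed in how far they stood from the other concentration. On the first principal component of the 8 libraries, which held 52.5% of the variance, those at 80 ppb lay at −69.0, −17.4, −60.8 and −104 for replicates 1 to 4 and those at 100 ppb at 37.3, 72.0, 64.6 and 77.3. Replicate 2 at 80 ppb was thus nearest to the 100 ppb libraries and replicate 4 at 80 ppb farthest. Among the 556 genes at least 4-fold higher at 100 ppb, replicate 2 was the highest of the 80 ppb libraries in 71.2% and replicate 4 the lowest in 71.4%. At 100 ppb, replicate 1 was the lowest in 64.7% of these genes and replicate 2 the highest in 52.5%. Among the 312 genes at least 4-fold lower, replicate 2 was the lowest 80 ppb library in 67.3%, and replicate 4 the lowest 100 ppb library in 57.7%. Over all tested genes the shares, in the same order, were 28.1% and 30.8%, 25.9% and 33.9%, and 26.3% and 26.4%. The steep genes were chosen by this same contrast. The median SD per gene was 0.98 at 80 ppb and 0.75 at 100 ppb in the steeply higher genes, and 0.53 and 0.84 in the steeply lower ones, against 0.21 and 0.25 over all tested genes (log2 scale). Leaving out 1 library at a time, the count of called genes ranged from 5650 without replicate 4 at 100 ppb to 8352 without replicate 2 at 80 ppb.

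Sets of genes were then taken from libraries outside this contrast, each made of the genes called there with at least a 2-fold difference, and their members were read at 100 against 80 ppb. Over all tested genes the median log2 difference was 0.02, with 16.9% higher and 12.3% lower. The first pair of sets came from ageing in filtered air, that is expanded control leaves of day 13 against day 2. Of 2292 genes that rose with age (8.25% of those tested), 850 were higher at 100 than at 80 ppb (37.1%) and 57 were lower (2.49%), with a median log2 difference of 0.79. Of 3671 genes that fell with age (13.2%), 1228 were lower at 100 ppb (33.5%) and 81 higher (2.21%), with a median of −0.47. In both age sets most called members differed in the direction that ageing in filtered air had taken. Per library, the median of the rising set, as a log2 deviation from the mean of the 8 libraries, was −0.43, −0.13, −0.36 and −0.60 at 80 ppb and 0.24, 0.50, 0.43 and 0.36 at 100 ppb, without overlap. Without replicate 4 at 80 ppb 550 rather than 850 of the rising set were called higher, and 51 rather than 81 of the falling set.

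Among the rising genes of the ageing set, the 2 with the largest difference at 100 ppb were Potri.004G055900 and Potri.002G025300. Potri.004G055900 had 94.1, 207, 218 and 36.7 normalised reads at 80 ppb and 831, 736, 7764 and 23960 at 100 ppb. Replicates 3 and 4 at 100 ppb were many times above the other 2 of their group (log2 difference 4.85 ± 0.76, limma adjusted p = 2.45e-06). Potri.002G025300 precedes the top 2 genes in identifier order and went from 246 ± 193 to 7410 ± 5919 (4.79 ± 0.74, limma adjusted p = 1.98e-06). Among the falling genes, Potri.002G257900 had 1334, 783, 1203 and 1557 normalised reads at 80 ppb and 150, 164, 82.7 and 42.9 at 100 ppb, with wide separation (−3.60 ± 0.36, limma adjusted p = 8.38e-11). Potri.010G067100 went from 206 ± 50.1 to 19.8 ± 14.0 (−3.55 ± 0.35, limma adjusted p = 8.38e-11). On day 2 in filtered air the same gene stood at 1194 ± 278.

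The second pair of sets came from leaf position, growing against expanded leaves of day 2 in filtered air. Of 4323 genes higher in growing leaves (15.6% of those tested), 825 were lower at 100 ppb (19.1%) and 176 higher (4.07%), with a median log2 difference of −0.25. Of 3894 genes lower in growing leaves (14%), 890 were higher at 100 ppb (22.9%) and 506 lower (13%), with a median of 0.16; scaled to equal totals this order turned, with 591 higher and 642 lower. That set held called genes of both directions, and its lower share was near the 12.3% of all tested genes. Of the growing-leaf genes, equal totals gave 108 higher in place of 176, leaving out replicate 4 at 80 ppb gave 100, and leaving out replicate 4 at 100 ppb gave 532 lower in place of 825.

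Potri.014G024000, a growing-leaf gene, had 129, 134, 120.0 and 140.5 normalised reads at 80 ppb and 19.0, 16.4, 8.46 and 5.26 at 100 ppb. The 80 ppb libraries were tightly grouped and far above the others (−3.46 ± 0.44, limma adjusted p = 3.75e-08). In growing control leaves of day 2 the gene stood at 9985 ± 1181 and in expanded ones at 3776 ± 492, so both groups of day 13 lay at a small part of the young level. Potri.010G012400 went from 283 ± 160 to 49.9 ± 40.9 (−3.18 ± 0.83, limma adjusted p = 0.00263). The call was lost without replicate 4 at 100 ppb, which held 1.75 normalised reads (adjusted p = 0.062), and in a model of the 8 libraries by themselves (adjusted p = 0.0536). Among genes lower in growing leaves, Potri.005G048400 had 425, 342, 173 and 56.9 normalised reads at 80 ppb and 2196, 1730, 10920 and 23730 at 100 ppb (4.84 ± 0.88, limma adjusted p = 3.08e-05). Potri.008G101000 had 274, 113, 191 and 56.2 against 678, 863, 5395 and 11940 (4.19 ± 0.71, limma adjusted p = 9.25e-06). In both genes replicates 3 and 4 at 100 ppb were several times above replicates 1 and 2.

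**Figure D3:**
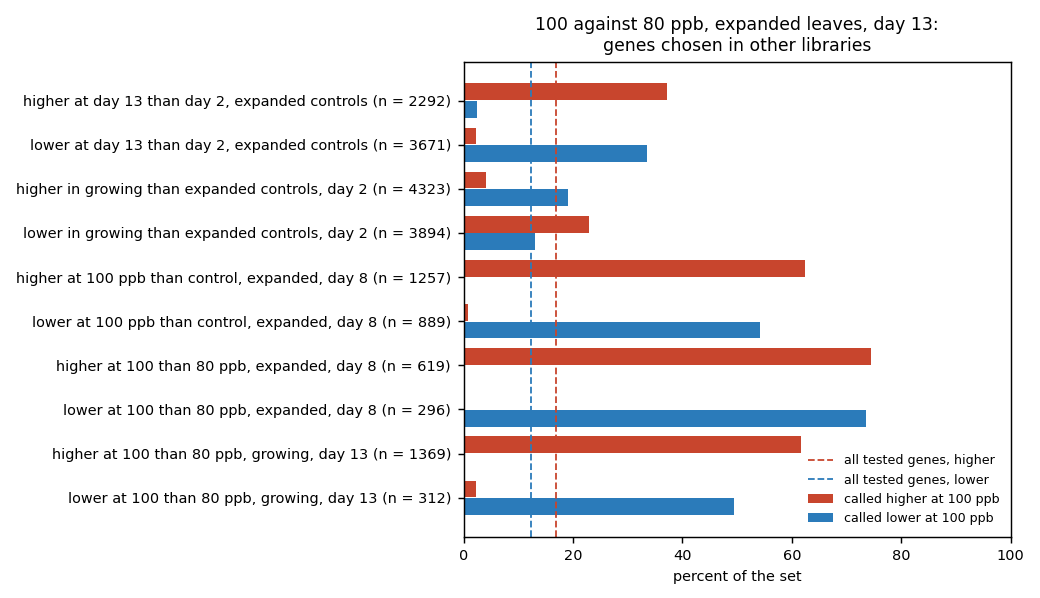
Percent of each gene set called higher (red) or lower (blue) at 100 than at 80 ppb in expanded leaves on day 13, with the share over all 27780 tested genes as dashed lines (16.9% and 12.3%). Sets were chosen in libraries that do not enter this contrast and n is the number of members; the ozone sets of day 8 and of growing leaves reach 49.4% to 74.5% in their own direction.

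Ozone on day 8 gave sets that moved further. Of 1257 genes higher at 100 ppb than in filtered air in expanded leaves on day 8 (4.52% of those tested), 785 were also higher at 100 than at 80 ppb on day 13 (62.5%) and 2 were lower, with a median log2 difference of 1.48. Of 889 genes lower there (3.2%), 481 were lower on day 13 (54.1%) and 7 higher, with a median of −1.13. Of 619 genes higher at 100 than at 80 ppb on day 8 (2.23%), 461 were higher on day 13 (74.5%) and 0 lower, with a median of 1.61. Of 296 genes lower at 100 than at 80 ppb on day 8 (1.07%), 218 were lower on day 13 (73.6%) and 0 higher, with a median of −1.48. As a share of the genes called on day 13, the sets from 100 against 80 ppb on day 8 made up 9.82% of the higher and 6.37% of the lower ones. Both pairs of day 8 sets use the same 100 ppb libraries of that day, so they are not independent of each other. Without replicate 4 at 80 ppb the counts of higher members fell to 462 of 1257 and 292 of 619.

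In the sets of 100 against 80 ppb on day 8, replicate 2 at 80 ppb was the library of its group nearest to the 100 ppb libraries. For the 619 genes the median deviation per library was −1.08, 0.07, −0.63 and −1.54 at 80 ppb and 0.59, 1.06, 0.87 and 0.71 at 100 ppb. For the 296 genes it was 0.87, 0.35, 0.91 and 0.96 at 80 ppb and −0.69, −0.47, −0.67 and −1.12 at 100 ppb. Neither set overlapped between the concentrations. By the naming rule, the members with the largest differences were Potri.002G025350, Potri.002G025425, Potri.001G176000 and Potri.002G257900, all described above. Potri.015G010500, also described above, was instead a member of the set lower at 100 ppb than in filtered air on day 8.

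**Figure D4:**
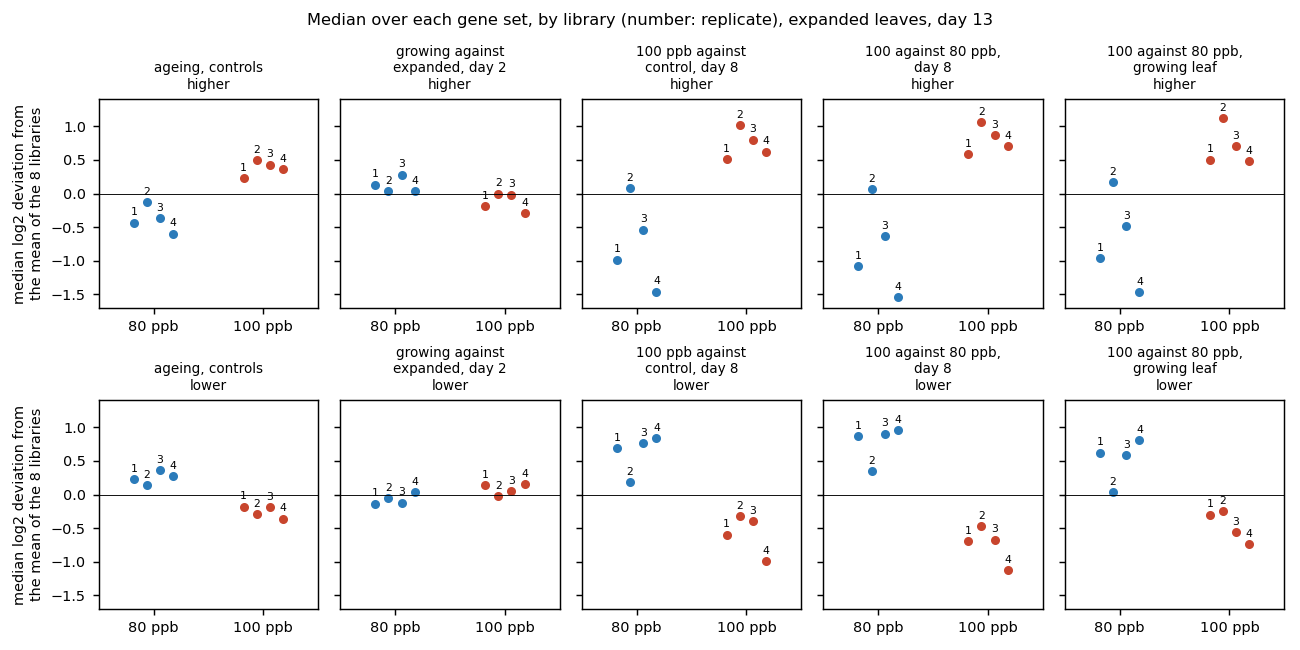
Median log2 deviation from the mean of the 8 libraries over the members of each set (vertical axis), for each library at 80 ppb (blue) and 100 ppb (red), with the replicate number above the point. In the ozone sets of the upper row replicate 2 at 80 ppb lies highest of its group, between 0.07 and 0.17, and replicate 4 lowest.

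Growing leaves of the same day were the third source. Of 1369 genes higher at 100 than at 80 ppb in growing leaves on day 13 (4.93% of those tested), 843 were higher in expanded leaves (61.6%) and 3 lower, with a median log2 difference of 1.39. Of 312 genes lower in growing leaves (1.12%), 154 were lower in expanded leaves (49.4%) and 7 higher, with a median of −0.95. Without replicate 4 at 80 ppb 423 rather than 843 were called higher. Potri.001G374700 had 28.1, 142, 39.1 and 12.2 normalised reads in expanded leaves at 80 ppb and 400, 772, 761 and 880 at 100 ppb, with no overlap (4.13 ± 0.83, limma adjusted p = 0.00014). In growing leaves it had 12.4, 7.89, 44.4 and 13.4 at 80 ppb and 13.2, 310.1, 260 and 130.1 at 100 ppb, where replicate 1 stayed within the 80 ppb range (2.73 ± 0.83, limma adjusted p = 0.0201). Potri.016G114200 went from 20.7 ± 11.9 to 344 ± 166 in expanded leaves (4.09 ± 0.72, limma adjusted p = 1.9e-05). Potri.015G074600, from the lowered set, had 1092, 218, 480.0 and 956 at 80 ppb and 128, 214, 98.7 and 24.5 at 100 ppb, with replicate 2 of both groups nearly equal (−2.65 ± 0.47, limma adjusted p = 2.16e-05).

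Read in the other direction, the genes of this contrast can be followed in earlier and younger leaves. The 1659 genes at least 2-fold higher at 100 ppb on day 13 had a median log2 difference of 1.65, which the choice of genes sets. The same genes had medians of 1.11 in expanded leaves on day 8, 0.60 on day 2 and 1.23 in growing leaves on day 13. They were called higher in 32.7%, 14.2% and 51.5%, where 5.11%, 4.42% and 11% of all tested genes were. The 1420 genes at least 2-fold lower had a median of −1.47, and −0.70, −0.22 and −0.57 in those other leaves. They were called lower in 24.4%, 2.25% and 18.6%, where 3.04%, 2.43% and 3.92% of all tested genes were. On day 2 the share of the lower genes that was called was therefore at the background. Their median of −0.22 on that day was below the −0.007 of all tested genes.

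Whether the difference between concentrations itself depended on leaf position was tested as an interaction. It passed in 613 genes, 2.21% of those tested (limma), and in 103 in a model of the 16 libraries by themselves. In 356 of them (1.28%) the difference was more positive in growing than in expanded leaves. These had a median log2 difference of −1.46 in expanded and −0.07 in growing leaves, and 315 were called lower in expanded leaves while 53 were called higher in growing ones. In the other 257 (0.925%) the median was 0.86 in expanded and −0.19 in growing leaves. Of these, 232 were called higher in expanded leaves while 40 were called lower in growing ones. Over all tested genes 12.3% were called lower and 16.9% higher in expanded leaves, and 11% higher and 3.92% lower in growing ones. The interaction test chose the genes by these differences, which in part sets the medians and counts. The count of 613 depends on the libraries and the scaling, and the split on the pseudocount too. It was 152 without replicate 4 and 937 and 1147 without replicates 1 and 2 of the expanded 100 ppb leaves, 351 without replicate 3 of the expanded 80 ppb leaves, and 370 and 344 without replicate 3 at 80 ppb and replicate 2 at 100 ppb of the growing leaves. At equal totals 1797 genes passed, 92.7% rather than 58.1% of them with the more positive difference in growing leaves; with a pseudocount of 8 it was 45.5% of 594.

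For Potri.001G176000 the fall seen in expanded leaves was smaller in growing leaves, which had 742, 624, 626 and 629 normalised reads at 80 ppb and 488, 408, 234 and 232 at 100 ppb. The difference of differences was 3.76 ± 1.01 (limma adjusted p = 0.03). Potri.006G250100 had 34.1, 11.9, 80.9 and 171 at 80 ppb in expanded leaves and 0, 1.64, 0.94 and 0.88 at 100 ppb, where each value rests on at most a few reads. In growing leaves it had 376, 382, 400.5 and 349 against 216, 480, 60.4 and 74.3 (difference of differences 3.48 ± 1.01, limma adjusted p = 0.0487). Potri.002G025350, which led the rise in expanded leaves, had only 2.49, 0.99, 13.4 and 0 normalised reads at 80 ppb and 8.79, 5.54, 6.11 and 7.43 at 100 ppb in growing leaves (−4.62 ± 1.14, limma adjusted p = 0.0169). Potri.017G032700 was uneven within every group. It had 0.74, 0, 113 and 1.44 at 80 ppb and 81.6, 2.47, 34.8 and 331 at 100 ppb in expanded leaves, and 94.5, 0.99, 6.19 and 125 against 0, 0, 3.06 and 0.93 in growing leaves (−6.80 ± 1.77, limma adjusted p = 0.0244). Without replicate 4 of the expanded 100 ppb leaves none of these 4 tests passed (adjusted p from 0.0842 to 0.192), nor did any in a model of these 16 libraries by themselves (0.0933 to 0.179). Potri.002G025350 also lost its call without replicate 3 of the growing leaves at 80 ppb (0.0678). Potri.001G176000 lost it without replicates 1, 3 or 4 at 80 ppb or 3 at 100 ppb in expanded leaves, and without 3 or 4 at 80 ppb or 2 at 100 ppb in growing ones. Potri.017G032700 lost it without replicates 1 or 2 at 80 ppb in expanded leaves, and without 1 or 4 at 80 ppb or 2 at 100 ppb in growing ones. Among the fits with 1 library left out, Potri.006G250100 kept it only without replicate 2 of either expanded group or replicates 3 or 4 of the growing leaves at 100 ppb. Other settings also mattered. Potri.002G025350 had an adjusted p of 0.22 with a pseudocount of 0.25 and 0.0897 in DESeq2, where Potri.017G032700 had 0.153. With a pseudocount of 8 it was 0.068 for Potri.001G176000 and 0.412 for Potri.006G250100 (log2 1.48), which had 0.0549 in edgeR.

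Between days 8 and 13 the difference between concentrations changed in 98 genes, 0.353% of those tested (limma, 2778 at an unadjusted p under 0.05). In 33 (0.119%) it became more positive, with a median log2 difference of 1.30 on day 13 against −0.04 on day 8. In 65 (0.234%) it became more negative, with −1.80 against −0.23, and all 65 were called lower on day 13. Over all tested genes 12.3% were called lower on that day. The interaction test chose these genes by the same differences, so their medians and calls on day 13 are in part set by that choice. The split into 33 and 65 genes is not stable. The positive share was 33.7% here, 59.2% of 98 genes with a pseudocount of 8 and 8.42% of 297 genes at equal totals. The count of 98 was sensitive to single libraries. It was 12 without replicate 4, 267 without replicate 1 and 295 without replicate 2 of the 100 ppb leaves of day 13, and 33 and 54 without replicates 3 and 4 at 80 ppb of that day. For day 8 it was 64, 18 and 55 without replicates 1, 3 and 4 at 80 ppb, and 25 and 154 without replicates 2 and 4 at 100 ppb. In a model of these 16 libraries by themselves 0 genes passed (limma, 2654 at an unadjusted p under 0.05), and edgeR called 92 and DESeq2 209 in the full model.

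Potri.001G409900 showed the largest such change. On day 13 it had 66.7, 49.8, 36.3 and 32.4 normalised reads at 80 ppb and 114, 275, 496 and 1011 at 100 ppb. On day 8 it had 60.8, 53.6, 18.9 and 23.1 at 80 ppb and 19.9, 19.3, 12.4 and 11.2 at 100 ppb. That difference pointed the other way but was not called, and the groups overlapped (log2 difference −1.13, limma adjusted p = 0.0593). The change was 4.10 ± 0.56 (limma adjusted p = 2.59e-05). Potri.001G362200 went from 40.5 ± 30.1 at 80 ppb to 243 ± 80.0 at 100 ppb on day 13, and stood at 36.0 ± 7.73 and 34.4 ± 10.2 on day 8 (2.85 ± 0.56, limma adjusted p = 0.00819). Potri.018G014500, an abundant gene, had 7930, 8990, 17850 and 12460 at 80 ppb and 4142, 1949, 1182 and 390 at 100 ppb on day 13. On day 8 its means were 17525 ± 2990 and 15007 ± 3174, and the groups overlapped (−2.78 ± 0.69, limma adjusted p = 0.0463, lost in edgeR with an adjusted p of 0.0823). Potri.010G184000 had 196, 119, 214 and 208 at 80 ppb and 14.96, 24.7, 22.6 and 7.01 at 100 ppb on day 13. On day 8 it stood at 581 ± 135 and 314 ± 90.4 and on day 2 at 1266 ± 57.2 and 1148 ± 168 (change from day 8, −2.53 ± 0.40, limma adjusted p = 0.000377). Its group means were lower on each later day at both concentrations, a course over time that was not tested. The call of Potri.018G014500 was also lost without any single library of day 8 but replicate 4 at 100 ppb, and without replicates 3 or 4 of either group of day 13 (adjusted p from 0.0623 to 0.298).

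**Figure D5:**
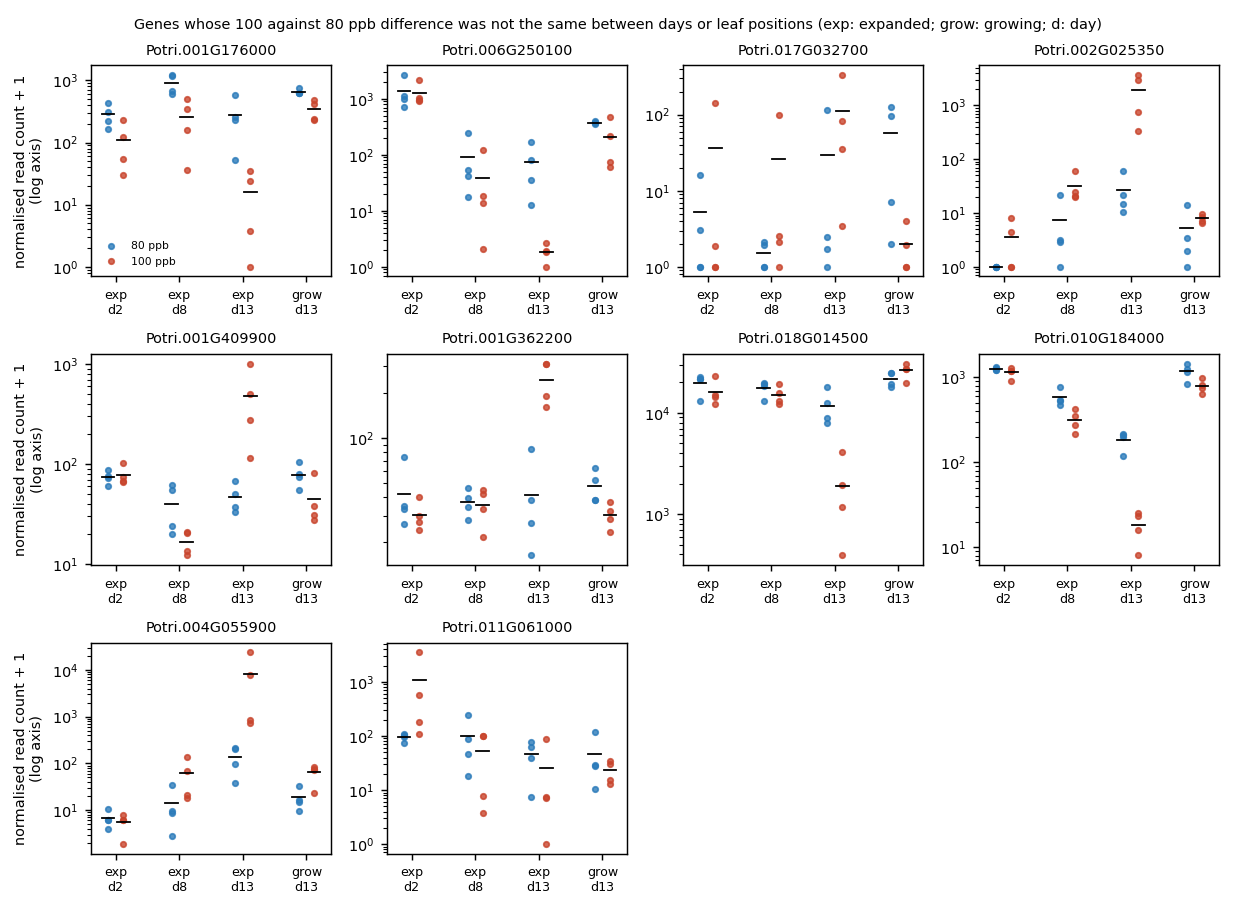
Normalised read counts plus 1 (log axis) at 80 ppb (blue) and 100 ppb (red) in expanded leaves of days 2, 8 and 13 and growing leaves of day 13, each point a library and each line an arithmetic group mean. The genes are those with the largest differences between leaf positions or days; Potri.010G184000 falls from 1266 to 184 at 80 ppb between days 2 and 13 and from 1148 to 17.3 at 100 ppb.

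From day 2 to day 13 the difference changed in 4089 genes, 14.7% of those tested (limma). In 2096 (7.54%) it became more positive, with a median log2 difference of 0.48 on day 13 against −0.17 on day 2, and 1604 of them were called higher on day 13. In 1993 (7.17%) it became more negative, with −0.66 against 0.26, and 1306 were called lower on day 13. On day 2, 213 of the first group had been called lower at 100 ppb and 360 of the second group higher. Over all tested genes 16.9% were called higher and 12.3% lower on day 13, and 4.42% higher and 2.43% lower on day 2. The interaction test chose the genes by the differences of both days, so an opposed value on day 2 is in part set by that choice. Without replicate 2 at 100 ppb of day 2 the count of changed genes was 1883, and without replicate 4 at 100 ppb of day 13 it was 1910. At equal totals 11.9% rather than 51.3% of the called changes were positive.

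Potri.004G055900 stood at 5.67 ± 2.70 normalised reads at 80 ppb and 4.52 ± 2.55 at 100 ppb on day 2, and at 139 ± 88.2 and 8323 ± 10934 on day 13 (change of the difference 5.22 ± 1.08, limma adjusted p = 0.00108). Potri.002G025350 had no read at 80 ppb on day 2 and 3.46, 6.97, 0 and 0 normalised reads at 100 ppb, so its change of 4.65 ± 1.14 (limma adjusted p = 0.00477) depends on the pseudocount and no fold is given. It did not pass in edgeR (adjusted p = 0.897) or DESeq2 (adjusted p = 0.472). Potri.006G250100 was high at both concentrations on day 2, with 1369 ± 881 and 1269 ± 607, before the separation of day 13 (−4.81 ± 1.01, limma adjusted p = 0.00135). Potri.011G061000 had 108, 3554, 182 and 572 at 100 ppb on day 2 against 95.6 ± 15.4 at 80 ppb, and its groups overlapped on day 13 (−4.28 ± 1.5, limma adjusted p = 0.0439). Without replicate 2 at 100 ppb of day 2 this adjusted p was 0.175, and without replicate 4 at 100 ppb of day 13 it was 0.17. It also missed the threshold without any 80 ppb library of day 2, replicate 4 at 100 ppb of day 2, replicates 1, 3 or 4 at 80 ppb of day 13, or replicates 1 or 2 at 100 ppb of day 13 (0.0519 to 0.0891).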

How the data were processed

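Messenger RNA was sequenced from expanded and growing leaves (stranded, poly(A)-selected libraries, paired reads, per the labels' protocols). The deposited signal is a normalised count per gene: every value was a whole multiple of 1 step per library (100% within 0.01 reads, largest deviation 0.000312), so it is a read count that the authors divided by 1 factor per library. TopHat2 2.12, featureCounts, Subread 1.6.1 and DESeq2 1.24.0 are named in the submitters' processing notes, without roles; no source used here states a genome build. Each of the 72 columns was matched to a sample by its library name.

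Testing was limited to genes that reached 10 in 4 or more libraries (27780 of 34699; 1923 had no read). log2(value + 1) was fitted with limma 3.58.1 in R 4.3.3, a mean per group over all 72 libraries (54 residual degrees of freedom), eBayes with a trend, two-sided, Benjamini-Hochberg at 0.05 within each contrast. A fold change is on the log2(value + 1) scale and understates that of low genes. Interactions are differences of 2 such contrasts. Gene sets are genes called with at least 2-fold in libraries outside the contrast; all share the spread per gene of the 1 model. The test was tried on simulated data.

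The contrast, sets and gene lists were chosen with earlier results of these data known. Since no file pairs identifiers with descriptions, lists by product description and tissue markers were not made. Named genes are the 2 with the largest difference in each direction of a contrast (adjusted p under 0.05, mean of at least 100 in the higher group, no overlap of the groups where 100 is set against 80 ppb in expanded leaves of day 13), the 2 most abundant called ones in each direction, and 2 per set. Alternatives were pseudocounts of 8 and 0.25, a filter at 50 or none, TMM scaling, robust eBayes and equal totals. Others were a test against a 2-fold change, the model without expanded controls of day 13 and each library left out. The compared libraries were also fitted by themselves, without and with a replicate block. DESeq2 1.42.0 and the quasi-likelihood test of edgeR 4.0.16 were run on whole reads. Scripts also used Python 3.11.15, numpy 2.4.6, pandas 2.3.3, matplotlib 3.10.9, statmod 1.5.0 and data.table (1.17.8).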

Additional observations from a re-analysis of the deposited data

Results flagged for a closer look

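For the 26 named genes, the 8 ozone groups whose values enter the tests (expanded leaves of days 2, 8 and 13 and growing leaves of day 13) were searched for 1 library far from the other 3. Of 206 groups with a spread, 21 held such a library. The cut used flags about 1 in 20 groups of normally distributed values, a rate that need not hold for low counts. Flags of genes in the same library are not independent. On day 13 in expanded leaves, Potri.017G032700 had 113.0 normalised reads in replicate 3 at 80 ppb (0 to 1.44 in the others), and Potri.011G061000 had 85.53 in replicate 3 at 100 ppb (0 to 6.58). In growing leaves of day 13, at 80 ppb Potri.001G176000 stood at 742.1 in replicate 1, and replicate 3 held 48.52 of Potri.002G025300 and 44.39 of Potri.001G374700; at 100 ppb Potri.015G074600 had 2792 in replicate 1. In expanded leaves of day 8, replicate 4 at 100 ppb stood high for Potri.002G025350 (58.2), Potri.002G025300 (461.1), Potri.005G048400 (930.0) and Potri.017G032700 (98.49), and replicate 2 for Potri.006G250100 (122.4). At 80 ppb of that day it was replicate 3 for Potri.002G025350 (21.09) and Potri.002G025300 (188.7), and replicate 1 for Potri.006G250100 (246.3). On day 2 at 100 ppb it was replicate 2 for Potri.006G250100 (2175), Potri.011G061000 (3554) and Potri.002G025300 (73.23), and replicate 3 for Potri.017G032700 (140.9). On day 2 at 80 ppb it was replicate 2 for Potri.002G025425 (2.35) and Potri.017G032700 (15.27), while Potri.018G014500 was low in replicate 1 (13200).

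The difference between 100 and 80 ppb was not the same in growing and expanded leaves of day 13 (growing minus expanded, log2 scale, interaction test in limma) for Potri.001G176000 (3.76), Potri.006G250100 (3.48), Potri.017G032700 (−6.80) and Potri.002G025350 (−4.62). From day 8 to day 13 it changed in expanded leaves for Potri.001G409900 (4.10), Potri.001G362200 (2.85), Potri.018G014500 (−2.78) and Potri.010G184000 (−2.53). From day 2 to day 13 it changed for Potri.004G055900 (5.22), Potri.002G025350 (4.65), Potri.006G250100 (−4.81) and Potri.011G061000 (−4.28). In limma on the compared libraries by themselves, no named call for leaf position passed (adjusted p from 0.0933 to 0.179). Nor did any named call for day 8 to day 13 (0.295 to 0.337). For day 2 to day 13, Potri.002G025350 did not pass in edgeR or DESeq2, and Potri.011G061000 kept its call in 12 of 28 alternatives.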

How the results depend on the processing

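The count of 8117 genes that differ between 100 and 80 ppb stayed within 1.5 times its value under every alternative except a test against a 2-fold change, which 208 genes passed (27.4% of them higher). edgeR called 8307, DESeq2 8500, and the 8 compared libraries alone 5598, of which 5043 were among the 8117. With 1 library left out the range was 5650 to 8352. The number of genes whose difference depends on leaf position (613) was 1797 at equal totals, 103 with only the compared libraries, 934 without the expanded controls of day 13 and 1031 in DESeq2, and 152 to 1147 with 1 library left out. The number that changed from day 8 to day 13 (98) was 151 with a pseudocount of 0.25, 297 at equal totals, 0 with only the compared libraries (limma, 2654 at an unadjusted p under 0.05), 182 without the expanded controls of day 13 and 209 in DESeq2, and 12 to 295 with 1 library left out. The number that changed from day 2 to day 13 (4089) was 2097 with only the compared libraries, and 1883 to 4907 with 1 library left out. The cause of these moves was not tested. The fits with fewer libraries also rest on smaller samples.

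Replicate numbers were not taken to pair the libraries, since the labels do not say what they mark and 1 of the 4 pairs showed no positive correlation. The deviations of same-numbered libraries at 80 and 100 ppb correlated with −0.05, 0.27, 0.17 and 0.12 across genes. Replicates 2 and 3 of both groups and replicate 4 at 100 ppb correlated best with their own number and the other 3 libraries did not, a hint from the data rather than the design. A replicate block was fitted as a term on the compared libraries by themselves. With it, 5962 genes differed between the concentrations (65.4% higher), against 5598 in the same libraries without it. For leaf position 0 genes passed with the block (limma, 5052 at an unadjusted p under 0.05) and 103 without. For day 8 to day 13 it was 0 with the block (2692) and 0 without. For day 2 to day 13 it was 1390 with the block and 2097 without.

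No named gene changed sign in an alternative. The majority direction of counts did turn: at equal totals for the contrast of the concentrations (57.9% to 30.6% higher) and in the test against a 2-fold change, and with a pseudocount of 8 for leaf position (58.1% to 45.5% positive) and for day 8 to day 13 (33.7% to 59.2% positive). From day 2 to day 13 the positive share went from 51.3% to 11.9% at equal totals, and was 43.7% to 56.1% in the other alternatives that kept every compared library. Of 200 set counts under other scalings or with a library left out, 178 kept within 1.5 times their value, and of 735 alternatives for the named genes 620 kept their side of the threshold. Limits: 4 libraries a group, a depth of 23.2 M reads in the shallowest library, and values of a few reads in the lowest genes.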

Other observations

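Genes that follow each other in the table, which is in identifier order, were often called together. Of 1307 genes at least 2-fold higher at 100 ppb whose next listed gene was also tested, 250 had a next gene that was at least 2-fold higher too (19.1%, against 5.97% of all tested genes). For genes at least 2-fold lower it was 111 of 1171 (9.48%, against 5.11%). The longest runs held 6 genes in each direction, from Potri.007G124900 to Potri.007G125600 for the higher and from Potri.011G016400 to Potri.011G019750 for the lower genes, both named after their values were seen. The genes Potri.002G025300, Potri.002G025350 and Potri.002G025425 belong to another such group with nearby identifiers. Neighbours did not always go together: Potri.014G024000 was 11-fold lower at 100 ppb, and Potri.014G024100, a nearby identifier, was 1.44-fold higher. The call of Potri.014G024100 was one of the less firm ones and was lost in the 8 libraries by themselves (limma adjusted p = 0.234). Reads shared between near-identical neighbouring copies could give joint calls of neighbours, which was not tested.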
